A study of Mus musculus with 12 samples.

Results

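The 3085 regions described here are peaks of the histone demethylase Jmjd2c (Kdm4c) that lay at gene starts, were less than 2000 bp wide and had no overlapping peak of the related demethylase Jmjd2a (Kdm4a). They were chosen by a rule that used the called positions themselves. A Jmjd2c peak was taken when it lay within 1000 bp of a transcription start site, measured less than 2000 bp and shared not even 1 bp with a Jmjd2a peak. They made up 34.1% of the 9053 Jmjd2c peaks within 1000 bp of a start site, called promoter peaks here. The deposited lists hold 10521 Jmjd2c peaks and 8977 Jmjd2a peaks. Of the other promoter peaks, 4776 were under 2000 bp wide with a Jmjd2a overlap, 391 were wider without an overlap and 801 were wider with an overlap.

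The cells were leukaemic granulocyte-macrophage progenitors (L-GMP) of C57BL/6 mice, transformed with the MLL-AF9 fusion oncogene. All groups, controls included, carry the genotype Jmjd2a/b/c f/f;Rosa26::CreERT2, in which Cre is expressed from the Rosa26 locus and becomes active only on addition of a tamoxifen compound. OHT cells received 500 nM 4-hydroxytamoxifen for 96 h, and Ctrl cells received none. All were grown in RPMI with 20% FBS and 10 ng/ml IL-3. The 12 chromatin immunoprecipitation libraries comprise 1 OHT and 1 Ctrl library each for Jmjd2a and Jmjd2c, and 2 OHT and 2 Ctrl libraries each for H3K9me3 and H3K36me3. The peak lists carry no height and no value per library, so depth is unknown, the deletion could not be checked and neither OHT nor a histone mark could be compared. The sources used here do not say which libraries gave each list. A peak absent from the Jmjd2a list is a site not called, which does not show that Jmjd2a was absent. Regions are not replicates: no test was made, and each 95% interval below is an exact (Clopper-Pearson) binomial interval that covers counting error over regions only.

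Jmjd2 (KDM4) enzymes use a Jumonji C domain, iron and 2-oxoglutarate to remove methyl groups from lysines 9 and 36 of histone H3. Jmjd2a and Jmjd2c also have PHD fingers and tandem Tudor domains, and the Tudor domains bind methylated histone tails, among them trimethylated H3K4, a mark of active promoters. Many mammalian promoters are CpG islands, stretches where the CG dinucleotide has escaped the loss seen in the rest of the genome. Such islands are also where trimethylated H3K4 is usually found.

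The promoter sequences of 7 of these genes show the range of base composition and the short motifs described below. They are RefSeq sequences on GRCm38.p6, whose primary assembly is that of mm10, and each lies upstream of the start and outside every gene of the RefSeq table. In the first 4, capitals mark every CG. They stretch from Irf9 and Men1, with few CG, over Kdm4a, the gene of Jmjd2a, to Mapk6, with many. They span chr14:55603835-55603984 (plus strand) for Irf9, chr19:6334829-6334978 (plus) for Men1, chr4:118180091-118180240 (minus) for Kdm4a and chr9:75410017-75410166 (minus) for Mapk6. The Irf9, Kdm4a and Mapk6 stretches lie inside their Jmjd2c peak, whereas the Men1 peak begins at the base after the stretch. The Mapk6 peak lies 230 bp from a Jmjd2a peak.
Irf9: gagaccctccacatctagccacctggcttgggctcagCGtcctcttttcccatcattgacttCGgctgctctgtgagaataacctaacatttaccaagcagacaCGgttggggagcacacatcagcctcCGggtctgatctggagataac
Men1: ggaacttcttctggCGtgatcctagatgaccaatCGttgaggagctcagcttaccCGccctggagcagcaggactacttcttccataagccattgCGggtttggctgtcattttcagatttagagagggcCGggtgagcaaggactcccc
Kdm4a: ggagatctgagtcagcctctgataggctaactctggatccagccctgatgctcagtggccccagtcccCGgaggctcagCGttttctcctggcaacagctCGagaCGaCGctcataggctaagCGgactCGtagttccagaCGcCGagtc
Mapk6: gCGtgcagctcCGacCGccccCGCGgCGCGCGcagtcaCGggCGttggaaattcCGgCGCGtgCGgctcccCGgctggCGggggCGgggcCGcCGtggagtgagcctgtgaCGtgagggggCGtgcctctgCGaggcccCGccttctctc

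In the other 3, capitals mark a match to a GC box (GGGCGG) in Setd2 at chr9:110532400-110532499 (plus), an ETS motif (CCGGAAG) in Mafk at chr5:139791436-139791535 (plus) and an NRF1 motif (GCGCATGC) in Cdt1 at chr8:122567915-122568014 (plus). The Setd2 and Cdt1 stretches lie inside their peak, and the Mafk peak begins 22 bp past the start site, downstream of the stretch. A match to such letters is a description and not evidence of a bound factor.
Setd2: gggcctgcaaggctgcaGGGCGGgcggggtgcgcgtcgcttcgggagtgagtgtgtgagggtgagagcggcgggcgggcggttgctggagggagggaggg
Mafk: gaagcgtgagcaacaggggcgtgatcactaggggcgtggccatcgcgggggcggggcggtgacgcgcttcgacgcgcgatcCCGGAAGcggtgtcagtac
Cdt1: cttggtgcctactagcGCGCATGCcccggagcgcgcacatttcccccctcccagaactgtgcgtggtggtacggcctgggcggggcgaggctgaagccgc

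Within the limit of 2000 bp, the Jmjd2c peaks without Jmjd2a were narrower at the median than those with Jmjd2a. Their median width was 1157 bp, with quartiles of 824 and 1491 bp, against a median of 1348 bp and quartiles of 1078 and 1605 bp for the peaks under 2000 bp with Jmjd2a. Together they covered 3.59 Mb. The widest belonged to Smg9, a factor of nonsense-mediated decay (1998 bp), followed by Mllt6 and Nrbp1 (1996 bp each), Gnb2, a G protein subunit (1995 bp), and the shared start of Znfx1 and 1500012F01Rik (1991 bp). The narrowest lay at Mefv, which encodes the inflammasome sensor pyrin (150 bp), then at B330016D10Rik (227 bp), Srp54c (254 bp), Vgll4 (285 bp) and Nadk, an NAD kinase (286 bp). Just outside the limit, at 2000 bp and without Jmjd2a, were the peaks of Srd5a3, of Ttc39c and of the shared start of Smcr8 and Top3a. Among Jmjd2c promoter peaks of 150 to 400 bp, 65.7% had no Jmjd2a overlap (95% interval 53.4 to 76.7). The share fell with width to 33.7% (31.3 to 36.2) at 1200 to 1400 bp and 30.6% (28.1 to 33.2) at 1400 to 1600 bp. It fell no further at larger widths, with 31.5% at 1600 to 1800 bp and 31.3% (27.9 to 34.9) at 1800 to 2000 bp. A wider peak has more bases at which an overlap can occur, and its part in this trend was not tested.

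**Figure D1:**
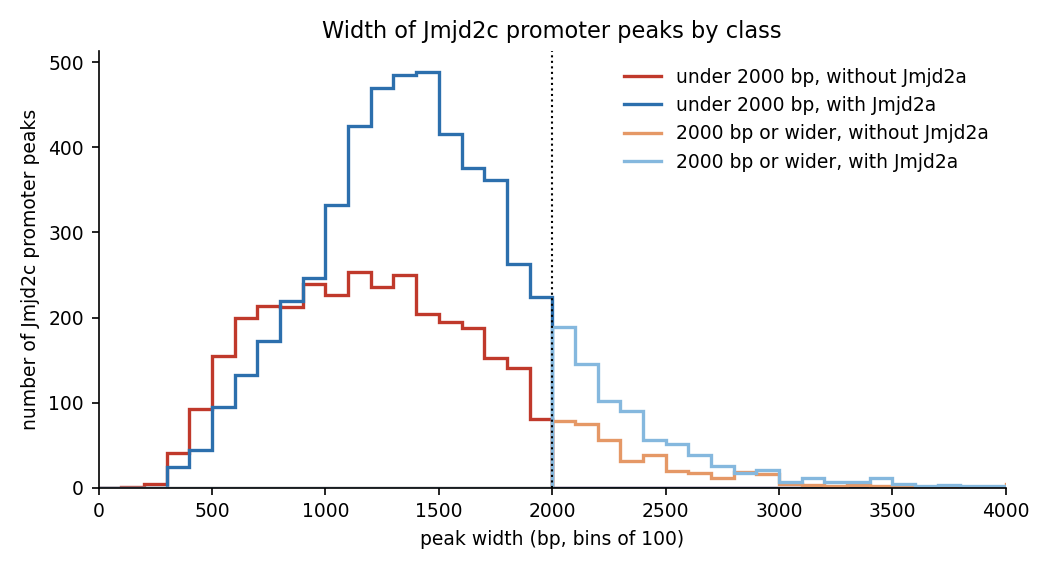
Number of Jmjd2c promoter peaks (vertical axis) by width in bp (horizontal axis, bins of 100 bp, shown to 4000 bp) in 4 classes, with a dotted line at the 2000 bp limit. The peaks under 2000 bp without Jmjd2a (median 1157 bp) lie to the left of those with Jmjd2a (median 1348 bp).

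Most of these peaks sat over the start site and reached further into the gene than upstream of it. A start site was covered by 2544 of the 3085 (82.5%, 95% interval 81.1 to 83.8), against 94.5% (93.8 to 95.1) of the 4776 narrower peaks with Jmjd2a. The share was also lower at like widths, for example 76.1% against 88.8% at 800 to 1000 bp, and 93.6% against 97.2% at 1200 to 1400 bp. At the 2614 peaks with a single named start of known strand, the median peak began 381 bp upstream and ended 770 bp downstream of the start, with its midpoint 204 bp downstream. The 3993 narrower peaks with Jmjd2a reached 505 bp upstream and 799 bp downstream, so the larger gap between the classes was on the upstream side. Of the peaks without Jmjd2a that missed the start, 338 lay wholly downstream and 180 wholly upstream. The peak of Gata2, a regulator of blood stem cells, lay 900 bp from its start, and that of Birc2, an inhibitor of apoptosis, lay 797 bp from it. At Kdm4a and Setd2, an H3K36 methyltransferase, the peak covered the start.

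**Figure D2:**
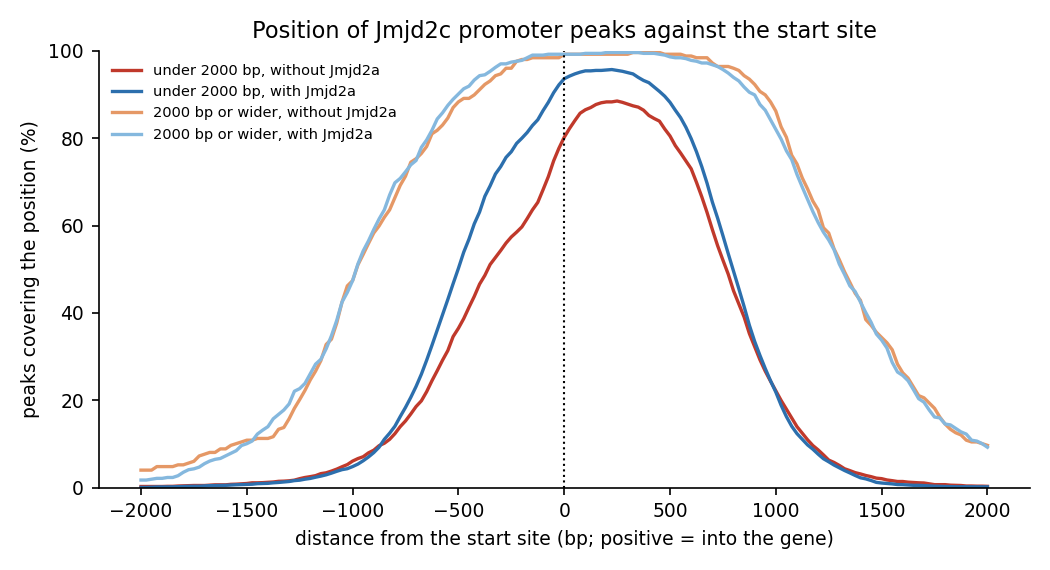
Share of peaks that cover each position (vertical axis, %) against distance from the start site (horizontal axis, bp, positive into the gene) for Jmjd2c promoter peaks with a single named start, in 4 classes. The curve of the 2614 narrower peaks without Jmjd2a is highest at 250 bp downstream (88.5%) and holds 36.5% at 500 bp upstream, where the 3993 narrower peaks with Jmjd2a hold 50.2%.

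By the deposited annotation, 90.8% of the peaks without Jmjd2a touched a 5′ untranslated region and 62.5% coding sequence, against 95.6% and 68.2% of the narrower peaks with Jmjd2a. A protein-coding gene started at 2981 of them (96.6%). A long non-coding RNA and no protein-coding gene started at 71 (2.3%, 95% interval 1.8 to 2.89), against 1.11% (0.832 to 1.45) with Jmjd2a. Long non-coding RNAs that share the named start with a protein-coding gene are not in these counts. Several starts were named for 395 (12.8%). The median gene length was 18.7 kb for genes with such a peak, 25.3 kb for genes with a Jmjd2a overlap and 14.3 kb for all genes of the background.

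Most of these regions were far from any called Jmjd2a peak. The median gap was 38.3 kb, with quartiles of 15.4 and 84.3 kb, and 2529 regions (82.0%) were more than 10000 bp away. Among the most distant were the peaks of Pcdh17, a protocadherin, and Fundc1, a receptor of mitophagy. A smaller set of 196 regions (6.35%) lay within 1000 bp of a Jmjd2a peak, down to 4 bp at Tmem214, 10 bp at Rab39 and 11 bp at Npm1, the gene of the nucleolar protein nucleophosmin. At such short gaps the absence of an overlap rests on a peak edge. The gap was at most 100 bp at 23 of the 196 and at most 500 bp at 156. At 115 of the 196 the close Jmjd2a peak overlapped another Jmjd2c peak. Among the 175 close ones with a known strand, the Jmjd2a peak was on the upstream side at 116 and on the gene-body side at 59. The authors' deposited table of start sites bound by both proteins uses windows reaching 1 kb to each side. Such a window was touched by 188 of the regions (6.09%, 95% interval 5.28 to 7.0), 186 of them among the 196 close ones.

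Some genes had more than 1 Jmjd2c promoter peak. A start site was shared with another Jmjd2c promoter peak by 276 regions (8.95%, 95% interval 7.96 to 10.0), against 3.08% (2.61 to 3.61) of the narrower peaks with Jmjd2a. At 195 of the 276 the other peak was also narrower and without Jmjd2a, and at 79 it overlapped Jmjd2a. Fli1, an ETS factor of blood progenitors, had neighbouring peaks of 1975 and 1326 bp, both without Jmjd2a. Dusp6, a phosphatase that acts on ERK, had peaks of 1394 and 574 bp. At Rcor1, a corepressor that binds the demethylase Kdm1a, a 1938 bp peak without Jmjd2a lay 659 bp from the start, next to a 1210 bp peak with Jmjd2a that covered it. In all, 124 of the 3209 genes named below also had a Jmjd2a overlap at another Jmjd2c peak.

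The regions were unevenly spread over the chromosomes. On the X chromosome 183 of 275 Jmjd2c promoter peaks were narrower without Jmjd2a (66.5%, 95% interval 60.6 to 72.1), against 2900 of 8774 on the autosomes (33.1%, 32.1 to 34.0). Single autosomes ranged between 26.4% on chromosome 16 and 40.2% on chromosome 19, so the X share lay above every autosome. Widths on X were a little smaller, with a median of 1049 bp against 1166 bp on the autosomes. The X share was higher within each width band as well, for instance 69.1% (56.7 to 79.8) against 31.3% (29.5 to 33.1) at 1200 to 1600 bp. A Jmjd2a overlap at any width was found at 30.2% of X promoter peaks of Jmjd2c and 62.6% of autosomal ones. Jmjd2c itself was called at fewer X genes, at 24.9% of 1130 genes against 38.0% of autosomal genes. Reads per chromosome are not in the tables used here, and their part in the X share was not tested.

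Several X-linked regulators were among these genes. They include Atrx, a chromatin remodeller of heterochromatin (1369 bp), Suv39h1, an H3K9 methyltransferase (1089 bp), and Kdm5c, an H3K4 demethylase (1046 bp). The deacetylases Hdac8 and Hdac6 had peaks of 1244 and 1204 bp, and Xiap, an inhibitor of caspases, a peak of 1763 bp. Suv39h1 lay 123 bp from a Jmjd2a peak, whereas Atrx, Hdac8 and Xiap were more than 100 kb from any. Uty, on the Y chromosome, had a peak of 1387 bp.

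**Figure D3:**
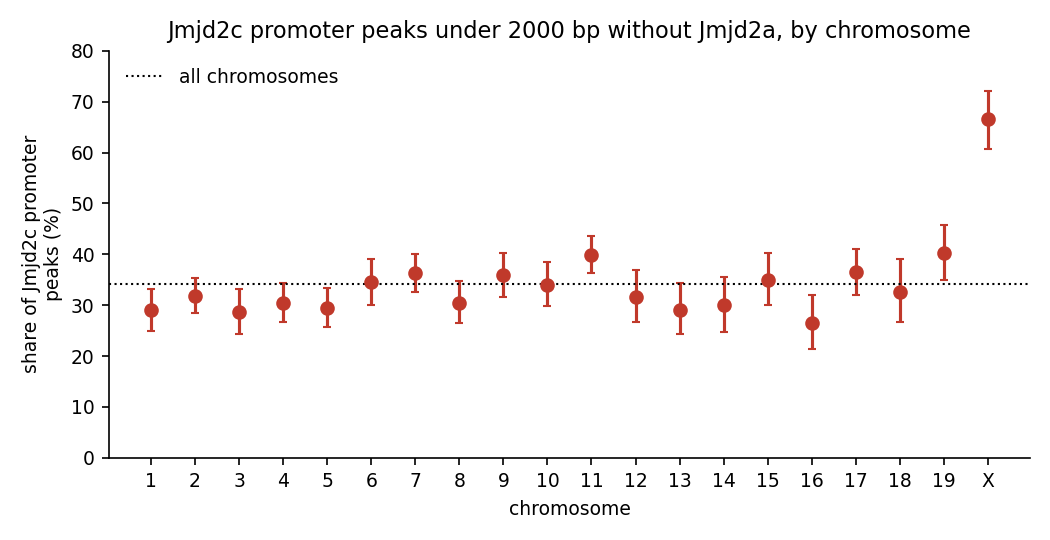
Share of Jmjd2c promoter peaks that are under 2000 bp wide and without Jmjd2a (vertical axis, %) on each chromosome (horizontal axis), with exact 95% binomial intervals as bars. The X chromosome stands at 66.5%, and the autosomes lie between 26.4% and 40.2% around the dotted line at 34.1%.

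The promoters of these genes were CG-rich, with a larger tail of CG-poor promoters than those with Jmjd2a. RefSeq promoter windows of 300 bases, from 250 before to 50 after the start, were matched for 2486 regions (80.6%). Their median CpG observed over expected, the number of CG relative to that from the C and G content, was 0.782 and their GC content 61.3%. The narrower peaks with Jmjd2a had 0.807 and 62.0%, and all 32851 promoter windows 0.384 and 52.7%. A ratio under 0.5 was found at 340 of the 2486 (13.7%, 95% interval 12.3 to 15.1), against 7.8% (6.97 to 8.69) of the narrower peaks with Jmjd2a and 58.1% of all windows. Promoters under 0.5 are called CG-poor here. At 1200 to 1600 bp of width the CG-poor shares were 10.8% (8.65 to 13.3) without and 6.36% (5.18 to 7.72) with Jmjd2a. At 800 to 1200 bp the intervals overlapped, at 13.0 to 18.4% without and 10.0 to 14.2% with Jmjd2a. Regions on the X chromosome had a median of 0.683.

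Among the CG-poor promoters were those of Irf9 (0.392), the DNA-binding subunit of the interferon-activated factor ISGF3, Csf3r (0.326), the G-CSF receptor, and Tlr2 (0.384), a receptor for bacterial lipopeptides. Kdm4a stood at 0.61 and Men1, the gene of the MLL partner menin, at 0.517. At the other end were Bap1, a deubiquitinase of histone H2A (1.23), Dot1l, the H3K79 methyltransferase (1.12), and Ikzf1, a lymphoid and myeloid transcription factor (1.06).

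**Figure D4:**
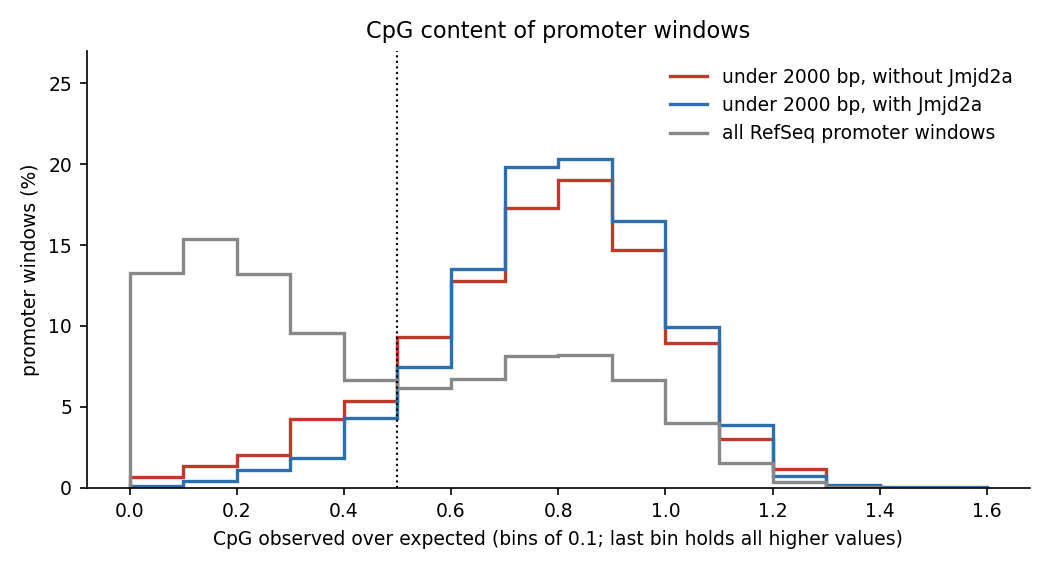
Share of promoter windows (vertical axis, %) by CpG observed over expected (horizontal axis, bins of 0.1) for genes at narrower Jmjd2c peaks without Jmjd2a, at narrower Jmjd2c peaks with Jmjd2a and for all RefSeq promoter windows. Below the dotted line at 0.5 lie 13.7% of the windows without Jmjd2a, 7.8% of those with Jmjd2a and 58.1% of all windows.

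Exact matches to short promoter motifs were counted on both strands of the same windows. The GC box GGGCGG, in the class bound by Sp and Klf factors, was in 70.5% of windows without Jmjd2a, 70.0% of those with Jmjd2a and 35.7% of all windows. The ETS motif CCGGAAG was in 20.0% (95% interval 18.5 to 21.7) without and 22.1% (20.8 to 23.5) with Jmjd2a, and in 8.86% of all windows. The NRF1 motif GCGCATGC followed the same order at 5.95%, 6.54% and 2.71%. GCGCGC was in 25.8% (24.1 to 27.6) without and 30.5% (29.0 to 31.9) with Jmjd2a, beside 13.6% of all windows. Its shares without and with Jmjd2a were 25.7% and 26.3% at peak widths of 800 to 1200 bp, and 24.7% and 31.1% at 1200 to 1600 bp. The TATA box TATAAA was in 6.76% (5.8 to 7.82) without and 5.13% (4.45 to 5.88) with Jmjd2a, and in 13.6% of all windows. The order of its shares without and with Jmjd2a changed with peak width. They were 7.35% and 7.47% under 800 bp, and 6.1% and 7.05% at 800 to 1200 bp. At 1200 to 1600 bp they were 7.96% and 4.55%, and at 1600 to 2000 bp 5.18% and 3.24%. Restricted to the strand of the gene and to 20 to 40 bases before the start, TATAAA was in 0.644% without and 0.654% with Jmjd2a. In all windows that share was 1.99%. The GC box, ETS and NRF1 motifs and GCGCGC all contain CG, which was also more frequent in these windows than in all windows, and its part in their shares was not tested. GCGCGC shares GCGC with the NRF1 motif.

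At the level of genes, 3209 of 26219 RefSeq genes (12.2%) had such a peak at the start. That was 32.7% of the 9811 genes with any Jmjd2c promoter peak, and the lists below are read beside this value. In all, 31 lists were examined, and their intervals are not adjusted for that number. Of the 4 Kdm4 genes, Kdm4a and Kdm4b had such a peak. The Kdm4a peak, at chr4:118179187-118180651, was 1465 bp wide, covered the start with 5′ untranslated, exonic and intronic sequence and lay 44134 bp from the nearest Jmjd2a peak. The Kdm4b peak, at chr17:56325942-56326526, was 585 bp wide and lay 98596 bp away. Kdm4c, the gene of Jmjd2c, had a 2087 bp peak with Jmjd2a, and the start that Kdm4d shares with Cwc15 a 1716 bp peak with Jmjd2a. Jmjd2c was thus called without Jmjd2a at the gene of Jmjd2a and with Jmjd2a at its own.

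Enzymes and readers of H3K9 and H3K36 methylation were marked about as often as all Jmjd2c genes, with 10 of the 28 that had a Jmjd2c promoter peak (35.7%, 95% interval 18.6 to 55.9). Setd2, which trimethylates H3K36, had a 1653 bp peak, and Setdb1, which trimethylates H3K9, a 410 bp peak beginning 234 bp from the start. Uhrf1, which reads H3K9 methylation and guides maintenance DNA methylation, had a 944 bp peak. The Polycomb-like proteins Mtf2 (1453 bp) and Phf19 (1293 bp), whose Tudor domains bind methylated H3K36, were also included. A list of other histone demethylases and further Jumonji C genes gave 8 of 25 (32.0%). The 8 were Kdm2b, Uty, Kdm3b, Riox2, Jmjd8, Kdm5c, Hif1an and Jmjd7, not all of them histone demethylases. The H3K36 demethylase Kdm2b had 1546 bp at a start inside the gene, besides a 3127 bp peak without Jmjd2a at another start. Polycomb genes gave 5 of 27 (18.5%, 6.3 to 38.1), which were Bap1 (1879 bp), Cbx6, Phc3, Phc2 and Jarid2.

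Regulators of blood progenitors had such a peak at 9 of the 15 genes with a Jmjd2c promoter peak (60.0%, 95% interval 32.3 to 83.7). This wide interval includes the 32.7% over all genes with a Jmjd2c promoter peak. The 9 were Fli1, Ikzf1, Mecom, Cebpe, Gata2, Cd34, Zbtb16, Myb and Gfi1. Ikzf1 had 1825 bp over its start, Cd34, a surface protein of stem and progenitor cells, 1271 bp over its start, and Myb 801 bp over its start. Cebpe, a factor of late granulocyte maturation, had 1318 bp beginning 184 bp from its start. Differentiated granulocyte and macrophage genes had few Jmjd2c promoter peaks at all, at 3 of 35 genes, 2 of them in this class (Csf3r with 1064 bp and Tlr2 with 1053 bp). Genes of other lineages had 1 of 46, which was not in this class, and the 1464 olfactory and vomeronasal receptor genes had none. Over all RefSeq genes, 9811 of 26219 had a Jmjd2c promoter peak. Peaks are not expression, and these counts do not check the labelled cell type.

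A list of MLL fusion targets that also holds the cofactor genes Dot1l and Men1 was near the value for all Jmjd2c genes. It gave 7 of 25 (28.0%, 95% interval 12.1 to 49.4). Hoxa3 had a 1624 bp peak, Dot1l, whose methyltransferase MLL fusions recruit, 1256 bp, and Men1 998 bp, all over the start. Meis1, the Hoxa9 cofactor, had a 1265 bp peak beginning 143 bp from its start and 5850 bp from a Jmjd2a peak. Hoxa9 had no Jmjd2c promoter peak, and Myc had a 1451 bp peak with Jmjd2a. In the IL-3 receptor and JAK-STAT pathway, through which the IL-3 in the medium acts, 10 of 30 were in this class (33.3%, 17.3 to 52.8). Stat5a, the main transcription factor of that receptor, had a 1393 bp peak, and Ptpn11, the phosphatase SHP2, a 1640 bp peak. Socs1, a feedback inhibitor, had 834 bp beginning 32 bp from its start. The receptor gene Il3ra had a 1358 bp peak with Jmjd2a, and Csf2rb had no Jmjd2c promoter peak.

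Apoptosis regulators stood above the value for all Jmjd2c genes, with 15 of 26 in this class (57.7%, 95% interval 36.9 to 76.6). Among the effectors were Cycs, cytochrome c (1919 bp), the initiator caspases Casp9 (1732 bp) and Casp8 (765 bp), the executioner caspase Casp6 (732 bp), and Bax, which permeabilizes mitochondria (1133 bp). Death receptor components were Fas (1500 bp), Fadd (1304 bp) and Tnfrsf10b (930 bp). Inhibitors were there too, with Xiap, Birc2, Birc3 (1232 bp), Birc5 (1398 bp) and the Bcl2 relative Bcl2l2 (1130 bp). All but Birc2 had a peak over the start.

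Cytosolic ribosomal protein genes gave 24 of 41 (58.5%, 95% interval 42.1 to 73.7), whereas mitochondrial ribosomal protein genes gave 19 of 75 (25.3%, 16.0 to 36.7). The cytosolic group ranged widely in width and position. The widest were Rpl7l1 (1874 bp), Rps27l (1850 bp) and Rpl32 (1793 bp). Rpl4, Rps18, Rpl31, Rpl23, Rps20, Rpl19 and Rplp2 had peaks of 1383 to 1775 bp over the start. Rps15a (502 bp) and Rpl39 (614 bp) had short peaks that missed the start by 28 and 319 bp. Ribosomal protein genes have many processed copies in the genome, and the treatment of reads that match several places is not stated. Only 41 of the 84 had a Jmjd2c promoter peak, against 75 of 78 mitochondrial ones.

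The other housekeeping lists were close to 32.7%. They were the proteasome (15 of 45, 33.3%), DNA replication and cell cycle (14 of 41, 34.1%) and the DNA damage response (9 of 28, 32.1%). Translation initiation factors and the spliceosome gave 13 of 47 each (27.7%). Cdt1, the replication licensing factor, had a 1688 bp peak, Cdc45, a subunit of the replicative helicase, one of 1827 bp over a start shared with Ufd1l, and Aurkb, a mitotic kinase, one of 1652 bp. Nbn, a sensor of double-strand breaks, had 1660 bp. The respiratory chain gave 22 of 54 (40.7%, 27.6 to 55.0) and Rab GTPases, which direct vesicle traffic, 19 of 41 (46.3%, 30.7 to 62.6), led by Rab6a with 1988 bp.

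BTB zinc finger (Zbtb) genes gave 5 of 34 (14.7%, 95% interval 4.95 to 31.1): Zbtb26, Zbtb45, Zbtb16, Zbtb5 and Zbtb22. The large Zfp family gave 83 of 296 (28.0%, 23.0 to 33.5), an interval that overlaps that of the Zbtb genes, led by Zfp444 (1983 bp), Zfp219 (1894 bp) and Zfp672 (1866 bp). Of the Zfp genes with a promoter sequence, 25 of 70 in this class were CG-poor. Among those with a Jmjd2a overlap at a Jmjd2c promoter peak of any width, 41 of 170 were. Counted by peak and not by gene, the CG-poor shares over all narrower peaks with a matched window were 13.7% without and 7.8% with Jmjd2a. For wider peaks with Jmjd2a the share was 3.71%. Immediate early genes, which respond quickly to growth signals, gave 5 of 22 (22.7%, 7.82 to 45.4), with Dusp6, Ier5, Klf6, Mafk and Btg2.

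Innate immune and interferon response genes gave the highest share of the lists with at least 10 Jmjd2c genes, with 25 of 39 (64.1%, 95% interval 47.2 to 78.8). This list was composed after several of its genes had been seen in this class, so its share is only a description. It includes the interferon receptor chains Ifnar2 (1241 bp) and Ifngr2 (919 bp), and the signal transducer Irf9 (1850 bp). Cytosolic RNA sensors were Ifih1 (1646 bp) and Ddx58 (819 bp) with their adaptor Mavs (1306 bp). The NF-κB subunit Rela had 1694 bp and its inhibitor Nfkbia 1231 bp. The interferon-induced genes Isg20 (1245 bp), Usp18 (900 bp), Oas1a (714 bp) and Irf7 (442 bp) were also there. Of the 21 with a promoter sequence 8 were CG-poor, against 1 of 11 genes with a Jmjd2a overlap at a Jmjd2c promoter peak of any width. These counts are small. Counted by peak over all narrower peaks with a matched window, the CG-poor share was 13.7% without and 7.8% with Jmjd2a. For wider peaks with Jmjd2a it was 3.71%.

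**Figure D5:**
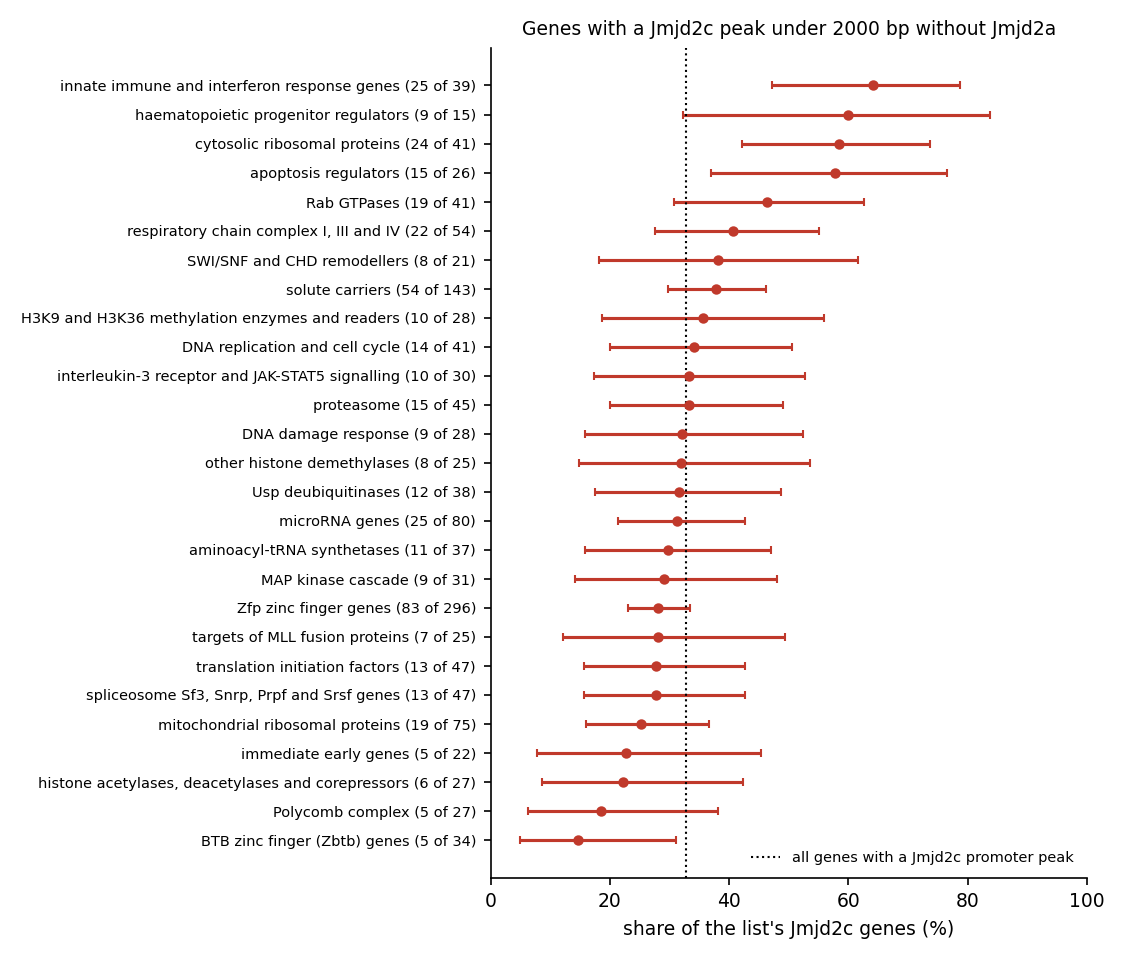
Share of each list's genes with a Jmjd2c promoter peak that had a peak under 2000 bp without Jmjd2a (horizontal axis, %), with exact 95% binomial intervals, for lists with at least 10 such genes (vertical axis, counts in brackets). The dotted line is the share over all genes with a Jmjd2c promoter peak (32.7%); innate immune genes (64.1%) are at the top and BTB zinc finger genes (14.7%) at the bottom.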

How the data were processed

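Chromatin immunoprecipitation was sequenced in 12 libraries. Per the file headers, the authors deposited Jmjd2c and Jmjd2a regions as positions in bp with RefSeq features and the nearest start site, and a table of start sites with both proteins. The submitters' processing notes name build mm10, bedtools 2.25.0, Bowtie 0.12.7 and SAMtools. The peak caller, threshold, control library and any pooling of libraries are not stated. No height, score or count is in these columns, so depth is unknown. A shallow library gives fewer and narrower calls, which bears on every share here.

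Deposited positions count from 0 and are printed from 1. Overlap needed 1 bp. Of 14356 RefSeq accessions, 14257 matched genes on GRCm38.p6; gene shares use 26219 genes. CpG observed over expected is the CG number times window length over the product of C and G numbers. Alternatives changed the distance, overlap and width limits, left out the sex chromosomes or added start sites. The steps were tested on simulated data. Python 3.11.15, numpy 2.4.6, pandas 2.3.3, scipy 1.17.1 and matplotlib 3.10.9 were used.

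The regions, gene lists and motifs were chosen with earlier results of these data known; 2 lists were corrected (aminoacyl-tRNA synthetases, microRNA genes) and 1 added (innate immune genes) after their values were seen. Named genes are Kdm4a to Kdm4d, Il3ra, Csf2rb, Meis1, Hoxa9, Myc, up to 4 genes of each list with the widest such peak, and the widest, narrowest and edge regions. Others, such as Suv39h1, Kdm5c, Setdb1, Gata2 and the further apoptosis, ribosomal and innate immune genes, were picked from the same lists after their values were seen. Some genes that the rule names are not reported here.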

Additional observations from a re-analysis of the deposited data

How the results depend on the processing

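The number of regions stayed within 1.5 times of 3085 under the 6 alternatives that change it. The share covering a start was 84.4% for a distance of 500 bp, 84.7% when a Jmjd2a peak within 1000 bp counted as shared, 77.6% for widths under 1500 bp and 84.8% for widths of at least 500 bp. The share touching a co-bound window was 8.06% when an overlap needed 50% of the shorter peak, 0.0692% when a Jmjd2a peak within 1000 bp counted and 7.69% for widths under 1500 bp. Genes with such a peak were 11.5% with Jmjd2a within 1000 bp, 8.88% under 1500 bp and 11.8% from 500 bp. In alternatives chosen after seeing the data, they were 11.5% without the sex-chromosome regions and 12.9% with the RefSeq promoter starts added. The 11.5% without the sex-chromosome regions is still a share of all 26219 genes, those on X and Y included. Of autosomal genes alone, 12.1% had such a peak. The median CpG ratio was 0.761 under 1500 bp. Each of these 13 shifts follows from the changed set of regions or starts. No paired analysis was possible because the lists hold no value per library and replicate numbers are given only for the histone marks. Depth and calling threshold, both unknown, limit every count of regions without a Jmjd2a call.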

Other observations

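Of 1169 microRNA genes, 80 had a Jmjd2c promoter peak, and 25 of these 80 (31.2%, 95% interval 21.3 to 42.6) had a peak under 2000 bp without Jmjd2a, close to the 32.7% over all genes with a Jmjd2c promoter peak. Most of the 25 shared the named start with another gene. Mir196b, which lies in the Hoxa cluster and is known for its expression with Hoxa genes in MLL-rearranged leukaemia, had a peak of 1321 bp of its own, at chr6:52229881-52231201, covering its start and both mature sequences. It was picked after its value was seen. Its RefSeq 5p sequence, with the seed (bases 2 to 8) in capitals, lies at chr6:52230129-52230150 on the minus strand.
miR-196b-5p: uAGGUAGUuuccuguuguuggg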
